A study of Mus musculus with 12 samples.

Results

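The 38 genes described here encode the carriers, enzymes and regulators of glycolysis, and the proteins of the hypoxia response. They were chosen by symbol, and rows of the expression table with those symbols were taken. Because Aldoa stood under a pair of identifiers, the symbols gave 39 rows of the 55487 genes in the table. All 39 passed the filter for testing, at least 1 CPM (counts per 1e+06 assigned reads) in at least 3 of the 12 libraries. Members were grouped by role: 4 carriers of glucose or lactate, 11 rows for glycolysis up to triose phosphate, 7 for the steps after it, 4 for the fate of pyruvate, 5 for oxygen sensing, and 8 for other targets of the hypoxia-inducible factors (HIF).

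The libraries were made from a primary line of mammary fibroblasts, derived from the fat pad of 1 healthy B6 mouse. There were 4 groups of 3 libraries. Doxorubicin cells received 100 nM of this topoisomerase poison for 24 h and were lysed on day 7; their controls, the day 7 vehicle cells, received water. Peroxide cells received 750 uM hydrogen peroxide in 3 exposures of 2 h, with 48 h of recovery, and were lysed on day 6; their controls, the day 6 vehicle cells, received water. The series text names both treatments as inducers of senescence, a lasting arrest of division. Vehicle cells were passaged during the experiment to hold their density down, so treatment, passaging and density cannot be told apart. Nothing in the labels says whether replicates were separate cultures, so the spread that enters each p-value may be technical. In such bulk samples, fewer cells of a type and less RNA per cell cannot be told apart.

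Glycolysis turns glucose into pyruvate in the cytosol and yields ATP and NADH. Lactate dehydrogenase passes pyruvate on to lactate, which leaves the cell through monocarboxylate carriers. Pyruvate dehydrogenase kinases hold pyruvate back from the mitochondria. In HIF, an alpha subunit pairs with ARNT. Where oxygen is plentiful, prolyl hydroxylases mark the alpha subunit for the VHL ubiquitin ligase, and it is destroyed. Where oxygen is short, the alpha subunit lasts, and the pair binds DNA at cores of the form ACGTG or GCGTG. Many glycolytic genes, and genes for mitophagy and for the hydroxylases themselves, are known HIF targets. Much of this control acts on the alpha proteins, which RNA levels do not measure.

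Depth, read from the value of 1 read, was 21.5 to 37.6 M (1e+06) reads in doxorubicin, 19.5 to 21.9 M in day 7 vehicle, 21.4 to 32.4 M in peroxide and 17.3 to 20.99 M in day 6 vehicle libraries. A floor of 3 reads was 0.0798 to 0.173 CPM, for counting error only. The 8 fibroblast markers on the list were all tested and summed to 8380.0 to 12339 CPM in doxorubicin cells, 6876 to 7579 CPM in day 7 vehicle cells, 8543 to 9809.9 CPM in peroxide cells and 6772 to 8301 CPM in day 6 vehicle cells. In doxorubicin cells the summed markers of other cell types were those of 6 epithelial (0.691 to 1.16 CPM), 4 endothelial (1.02 to 1.56 CPM), 5 leukocyte (4.28 to 6.66 CPM) and 4 adipocyte genes (3.86 to 5.26 CPM). In day 7 vehicle cells the same sums were 0.137 to 0.923, 0.444 to 0.718, 2.37 to 3.23 and 1.28 to 2.001 CPM. In peroxide cells they were 0.421 to 0.722, 0.340 to 0.981, 2.34 to 3.27 and 1.45 to 2.81 CPM, against 0 to 0.143, 0.238 to 0.751, 0.810 to 1.62 and 0.341 to 0.694 CPM in day 6 vehicle cells. No listed marker of another cell type was at 0 in all 12 libraries. The 3 proliferation markers summed to 166 to 195 CPM in doxorubicin cells, against 627 to 681 CPM in day 7 vehicle cells, and to 351 to 374 CPM in peroxide cells, against 955 to 998 CPM in day 6 vehicle cells. They were also lower in day 7 than in day 6 vehicle cells (median log2 difference -0.58, with 3 of 3 called). The part of these markers in the results was not tested. Of the libraries, 3 stood apart from their groups on the second principal component (23.7% of the variance): peroxide replicate 2 scored 48.2, against 16.8 and 14.2 for its partners, day 7 vehicle replicate 3 scored 37.8, against 6.67 and 5.21, and doxorubicin replicate 1 scored 0.0133, against -39.9 and -29.5. Calls that change without them are given with and without them.

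Most called members fell with doxorubicin, and most rose with peroxide. In doxorubicin cells 22 of 39 rows fell and 3 rose against day 7 vehicle cells, with 14 not called (adjusted p below 0.05), beside 27.8% down, 22.1% up and 49.9% either way of all 13280 tested genes. The median log2 fold change was -0.33 over the members, and -0.03 over all tested genes. In peroxide cells 15 rows rose and 8 fell against day 6 vehicle cells, with 16 not called, beside 27.3% up, 23.4% down and 50.7% either way of all tested genes. The median was 0.17 over the members and -0.01 over all tested genes. Of the rows, 15 were called with both treatments, 8 of them in the same direction and 7 in opposite directions. The same counts were not made over all tested genes, so these are a description. Among the opposite ones, Gpi1, Pfkfb3 and Epas1 had a call that was lost when 1 library was left out. Among those in the same direction, so did Pfkp and Adm. The second Aldoa identifier, which passed the filter through vehicle libraries alone, is among the falls of both; without it the falls were 21 with doxorubicin and 7 with peroxide. Libraries of the groups did not overlap for 29 of 39 rows with doxorubicin (59.7% of all tested genes did not overlap), and for 23 of 39 with peroxide (59.9%). By at least 1 log2 unit, 2 of 39 rows rose and 5 fell with doxorubicin (8.92% and 3.98% of all tested genes). With peroxide 3 of 39 rose and 2 fell by as much (7.33% and 6.59%). The 5 with doxorubicin include the second Aldoa identifier (-1.23), whose fall is a description.

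**Figure D1:**
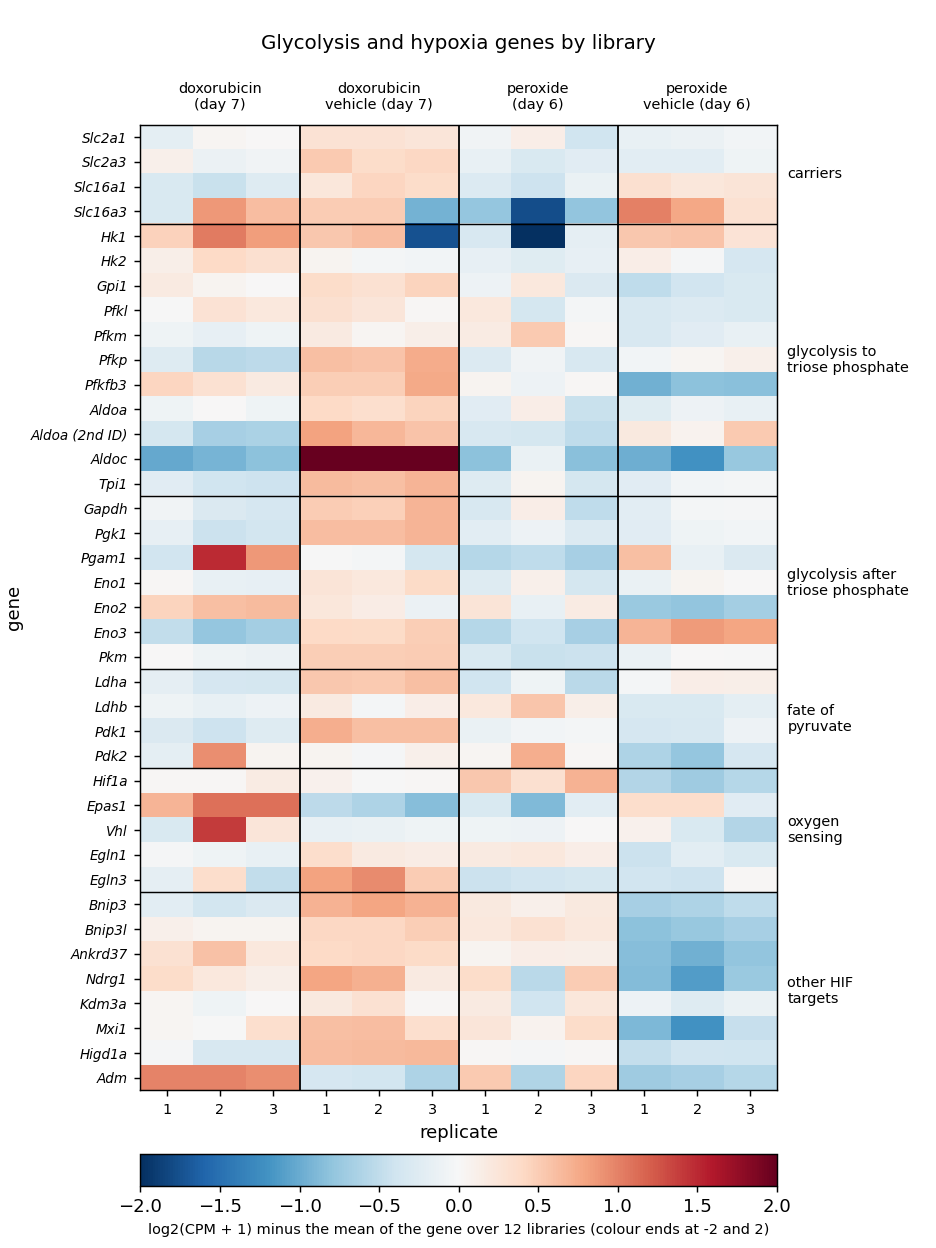
Each row is a member and each column a library, coloured by log2(CPM + 1) minus the mean of that member over the 12 libraries, with lines between the 4 groups and the role groups. The day 7 vehicle libraries are the reddest block in most rows, and had the highest group mean in 26 of the 39 rows.

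**Figure D2:**
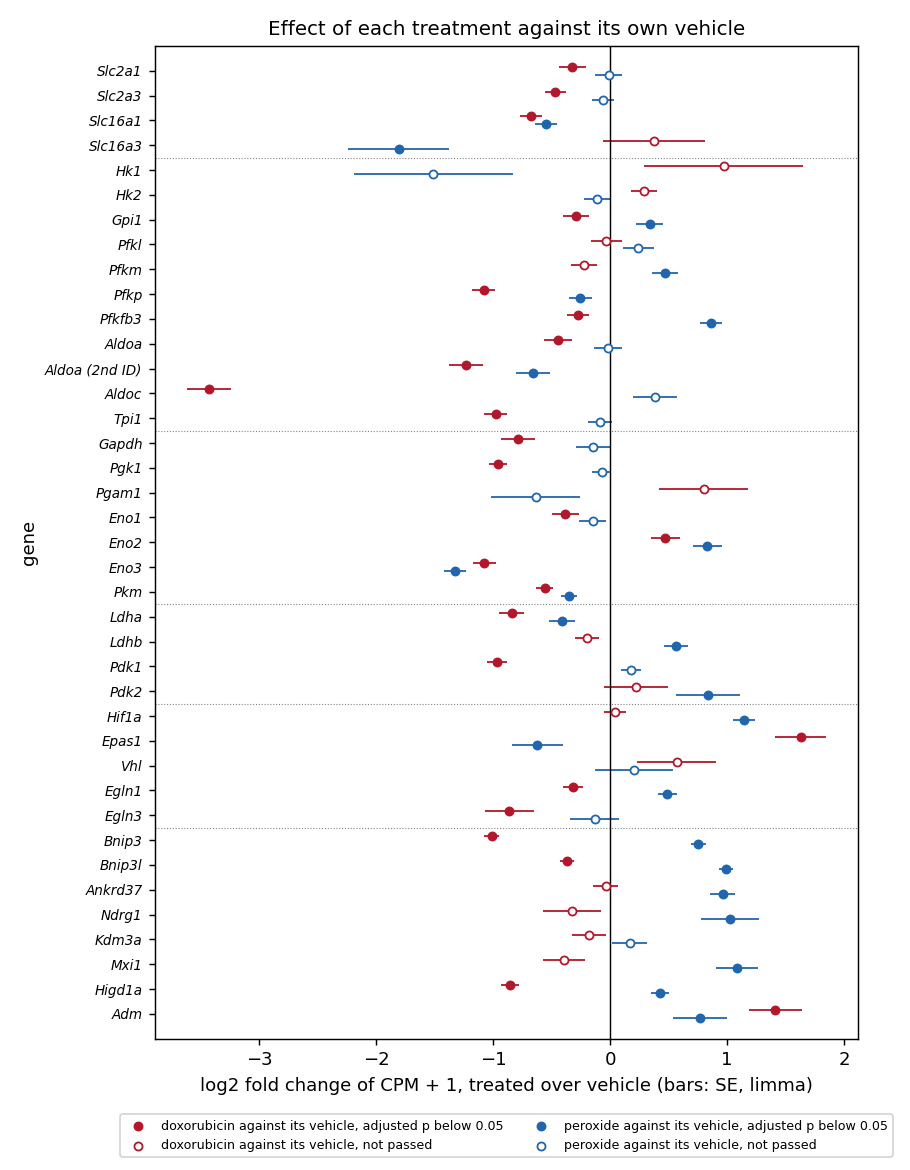
Points give the log2 fold change of CPM + 1 of each treatment against its own vehicle, doxorubicin in red and peroxide in blue, with bars for the SE; filled points had an adjusted p below 0.05. With doxorubicin, 22 filled points lie left of 0 and 3 right of it; with peroxide, 8 lie left and 15 right.

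No carrier was called up with either treatment, beside 22.1% of all tested genes with doxorubicin and 27.3% with peroxide. With doxorubicin 3 of 4 were called down (27.8% of all tested genes), and with peroxide 2 of 4 (23.4%). Slc16a1 (the carrier MCT1, which moves lactate and pyruvate) was at 24.1, 21.7 and 24.99 CPM in doxorubicin cells, against 35.1, 40.7 and 38.99 CPM in day 7 vehicle cells. It was at 24.5, 22.2 and 27.2 CPM in peroxide cells, against 37.6, 35.1 and 36.1 CPM in day 6 vehicle cells. It fell in both, with log2 fold changes of -0.67 ± 0.09 (SE, adjusted p = 0.000142) and -0.54 ± 0.09 (SE, adjusted p = 0.000602), and in neither comparison did the libraries overlap. Slc16a3 (MCT4, the lactate exporter of glycolytic cells) was at 33.9, 77.2 and 65.1 CPM in doxorubicin cells, against 59.7, 59.9 and 21.4 CPM in day 7 vehicle cells, where day 7 vehicle replicate 3 lay far below its partners and the groups overlapped. It was at 24.1, 11.5 and 23.7 CPM in peroxide cells, against 84.9, 72.7 and 51.7 CPM in day 6 vehicle cells, with no overlap. The log2 fold change was -1.81 ± 0.43 (SE, adjusted p = 0.00481) with peroxide and 0.37 ± 0.43 (SE, adjusted p = 0.494) with doxorubicin. Without peroxide replicate 2 and day 7 vehicle replicate 3, the peroxide value was -1.48 (adjusted p = 0.00229), and the doxorubicin value changed sign, to -0.11 (adjusted p = 0.785). The doxorubicin effect minus the peroxide effect was 2.18 ± 0.61 (SE, adjusted p = 0.0203); this call was lost without doxorubicin replicate 2 or day 6 vehicle replicate 1 (adjusted p between 0.05 and 0.0505), and without peroxide replicate 2 and day 7 vehicle replicate 3 the difference was 1.37 (adjusted p = 0.0362).

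Both glucose carriers fell with doxorubicin. Slc2a1 (GLUT1, the main basal glucose carrier of most cells) was at 186, 219 and 216 CPM in doxorubicin cells, against 262, 261 and 252 CPM in day 7 vehicle cells, a log2 fold change of -0.32 ± 0.12 (SE, adjusted p = 0.0368). Its groups did not overlap, but the call was lost without doxorubicin replicate 1, doxorubicin replicate 3, day 7 vehicle replicate 1, day 7 vehicle replicate 2, day 7 vehicle replicate 3 or day 6 vehicle replicate 2 (adjusted p between 0.0511 and 0.116). Slc2a3 (GLUT3, a carrier of high affinity) was at 18.8, 16.03 and 16.6 CPM in doxorubicin cells, against 25.5, 22.9 and 23.8 CPM in day 7 vehicle cells, and fell by 0.47 on the log2 scale (adjusted p = 0.00138). With peroxide the log2 fold changes were -0.01 ± 0.12 (SE, adjusted p = 0.943) for Slc2a1 and -0.06 ± 0.09 (SE, adjusted p = 0.603) for Slc2a3, and neither was called. The difference between the effects was called for Slc2a3, at -0.41 ± 0.13 (SE, adjusted p = 0.0328), and this call was lost without any 1 library other than doxorubicin replicate 1, day 7 vehicle replicate 2, peroxide replicate 2, peroxide replicate 3 or day 6 vehicle replicate 3 (adjusted p between 0.0617 and 0.0741).

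From glucose to triose phosphate, 7 of 11 rows fell with doxorubicin and none rose (27.8% and 22.1% of all tested genes). With peroxide 3 rose and 2 fell (27.3% and 23.4%), so the rises were near the share of all genes. Without the second Aldoa identifier, 6 fell with doxorubicin and 1 with peroxide. Aldoc (aldolase C, the isoform best known from brain) held the largest change of any member. It was at 1.72, 1.91 and 2.13 CPM in doxorubicin cells, against 30.3, 28.7 and 32.3 CPM in day 7 vehicle cells, a log2 fold change of -3.43 ± 0.19 (SE, adjusted p = 8.02e-08). It was at 2.12, 4.02 and 2.10 CPM in peroxide cells, against 1.82, 1.38 and 2.25 CPM in day 6 vehicle cells, a log2 fold change of 0.38 ± 0.19 (SE, adjusted p = 0.107). The day 7 vehicle cells stood alone for this gene, since the doxorubicin and peroxide libraries and the day 6 vehicle libraries all lay at or below 4.02 CPM. Between the vehicles, day 7 against day 6, the log2 difference was 3.49 ± 0.19 (SE, adjusted p = 8e-07), and the doxorubicin effect minus the peroxide effect was -3.81 ± 0.26 (SE, adjusted p = 8.73e-06); these comparisons share libraries. Aldoa, the aldolase of most tissues, was at 4491, 4787 and 4493 CPM in doxorubicin cells, against 6278, 6013 and 6467 CPM in day 7 vehicle cells, and fell with a log2 fold change of -0.45 ± 0.12 (SE, adjusted p = 0.00957). With peroxide it overlapped, at -0.02 ± 0.12 (SE, adjusted p = 0.921). The second identifier named Aldoa (ENSMUSG00000114515) was at 0.745, 0.399 and 0.425 CPM in doxorubicin cells, against 2.86, 2.51 and 2.31 CPM in day 7 vehicle cells, and at 0.767, 0.741 and 0.561 CPM in peroxide cells, against 1.54, 1.33 and 2.20 CPM in day 6 vehicle cells. It passed the filter only through the vehicle libraries, so its calls (-1.23 and -0.66, both down) are a description.

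Among the phosphofructokinase subunits, which catalyse the committed step, Pfkp (platelet type) fell with doxorubicin. It was at 188, 152 and 156 CPM in doxorubicin cells, against 340.2, 332 and 377 CPM in day 7 vehicle cells, a log2 fold change of -1.08 ± 0.10 (SE, adjusted p = 4.81e-06). With peroxide it was at 186, 214 and 179 CPM, against 217, 231 and 241 CPM in day 6 vehicle cells, a log2 fold change of -0.25 ± 0.10 (SE, adjusted p = 0.0484); that call was lost without any 1 library other than doxorubicin replicate 1, doxorubicin replicate 2 or peroxide replicate 2 (adjusted p between 0.05 and 0.142). Pfkm (muscle type) rose with peroxide (0.47 ± 0.11 SE, adjusted p = 0.00469) and was not called with doxorubicin (-0.23 ± 0.11 SE, adjusted p = 0.114). Pfkl (liver type) was called in neither, at -0.03 ± 0.13 (SE, adjusted p = 0.848) with doxorubicin and 0.24 ± 0.13 (SE, adjusted p = 0.15) with peroxide. With peroxide it passed with upper-quartile scaling (0.31, adjusted p = 0.0421) and with array weights (0.40, adjusted p = 0.00353).

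Pfkfb3 makes fructose 2,6-bisphosphate, the activator of phosphofructokinase. It was at 78.9, 72.5 and 66.3 CPM in doxorubicin cells, against 82.7, 82.3 and 99.6 CPM in day 7 vehicle cells, and at 60.5, 54.2 and 59.6 CPM in peroxide cells, against 29.5, 32.8 and 32.2 CPM in day 6 vehicle cells. It rose with peroxide (0.86 ± 0.10 SE, adjusted p = 2.21e-05) and fell slightly with doxorubicin (-0.28 ± 0.10 SE, adjusted p = 0.0325). The groups did not overlap in either, but the doxorubicin call was lost without doxorubicin replicate 2, doxorubicin replicate 3 or day 7 vehicle replicate 3 (adjusted p between 0.0691 and 0.138). The difference between the effects was -1.14 ± 0.14 (SE, adjusted p = 0.000268), while the day 7 vehicle exceeded the day 6 vehicle by 1.45 ± 0.10 (SE, adjusted p = 3.17e-06). Gpi1, which interconverts glucose and fructose phosphates, had log2 fold changes of -0.29 ± 0.11 (SE, adjusted p = 0.0482) with doxorubicin and 0.34 ± 0.11 (SE, adjusted p = 0.0265) with peroxide. The first was lost without any 1 library other than doxorubicin replicate 1, peroxide replicate 2 or peroxide replicate 3 (adjusted p between 0.0531 and 0.138). The second was lost without peroxide replicate 2, day 6 vehicle replicate 1 or day 6 vehicle replicate 2 (adjusted p between 0.0586 and 0.0983), and was 0.20 without peroxide replicate 2. Tpi1, which interconverts the triose phosphates, fell with doxorubicin (-0.98 ± 0.10 SE, adjusted p = 1.46e-05), and was at -0.08 with peroxide, not called.

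The hexokinases, which trap glucose in the cell, were not called in any comparison in the fit reported here, though each passed in alternatives. Hk1 was at 158, 235 and 205 CPM in doxorubicin cells, against 166, 176 and 33.6 CPM in day 7 vehicle cells, and at 91.7, 17.4 and 100.4 CPM in peroxide cells, against 166, 171 and 139 CPM in day 6 vehicle cells. The lowest values belonged to day 7 vehicle replicate 3 and peroxide replicate 2. The log2 fold changes were 0.97 ± 0.68 (SE, adjusted p = 0.253) with doxorubicin and -1.51 ± 0.68 (SE, adjusted p = 0.085) with peroxide. Without these libraries the peroxide value was -0.71 (adjusted p = 0.00264). Without doxorubicin replicate 1 as well, the doxorubicin value was 0.36 (adjusted p = 0.0151). Hk2 was at 0.29 ± 0.11 (SE, adjusted p = 0.0511) with doxorubicin and -0.12 ± 0.11 (SE, adjusted p = 0.413) with peroxide. With doxorubicin Hk2 passed in 5 alternatives that left out no replicate: a filter of 5 CPM (0.29, adjusted p = 0.049), median-of-ratios scaling (0.34, adjusted p = 0.017), upper-quartile scaling (0.27, adjusted p = 0.0414), array weights (0.32, adjusted p = 0.00352) and separate fits (0.29, adjusted p = 0.0337). The difference between the effects passed for Hk1 with array weights (1.57, adjusted p = 0.0481), and for Hk2 with median-of-ratios scaling (0.47, adjusted p = 0.0314) and with array weights (0.42, adjusted p = 0.0157).

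**Figure D3:**
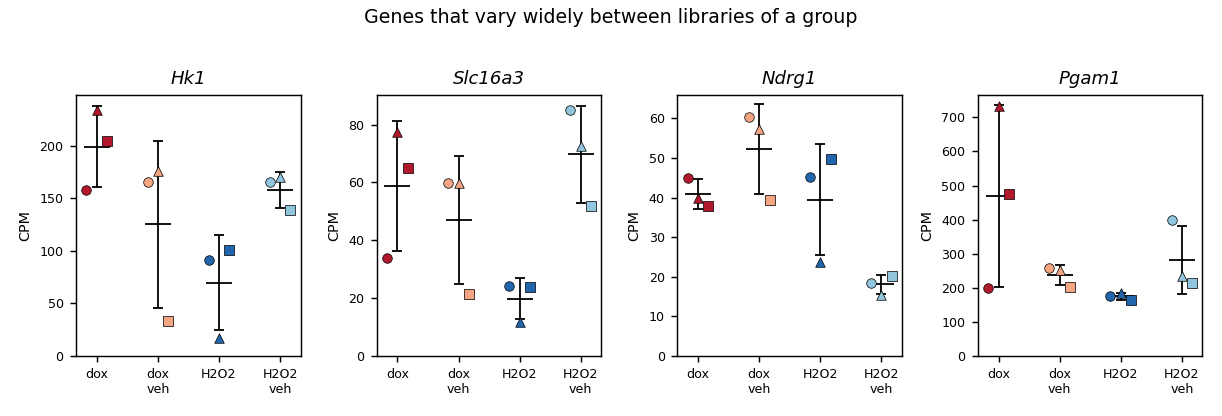
Dots give CPM in each library (circle, triangle and square for replicates 1, 2 and 3), with the group mean and SD in black; dox is doxorubicin, H2O2 peroxide and veh the vehicle of each. Hk1, Slc16a3 and Ndrg1 are low in peroxide replicate 2 and day 7 vehicle replicate 3, and Pgam1 spreads widest in doxorubicin cells.

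In the steps after triose phosphate, 5 of 7 genes fell and 1 rose with doxorubicin (27.8% and 22.1% of all tested genes). With peroxide 2 fell and 1 rose (23.4% and 27.3%). Gapdh, which makes the NADH of the pathway and often serves as a reference gene, was at 1849, 1582 and 1536 CPM in doxorubicin cells, against 2765, 2689 and 3103 CPM in day 7 vehicle cells. Pgk1, which makes the first ATP, was at 1146, 958 and 998 CPM in doxorubicin cells, against 1985, 1968 and 2056 CPM in day 7 vehicle cells. Pkm (pyruvate kinase, the last step) was at 7788, 7268 and 7142 CPM in doxorubicin cells, against 10891, 10840.0 and 10967 CPM in day 7 vehicle cells. All of them fell, with log2 fold changes of -0.79 ± 0.14 (SE, adjusted p = 0.000911) for Gapdh, -0.96 ± 0.08 (SE, adjusted p = 2.39e-06) for Pgk1 and -0.56 ± 0.07 (SE, adjusted p = 5.73e-05) for Pkm, and in none did the libraries overlap. With peroxide, Gapdh and Pgk1 overlapped with their vehicle, at -0.14 and -0.07, while Pkm fell, at -0.35 ± 0.07 (SE, adjusted p = 0.00144). The difference between the effects was called for Gapdh (-0.64 ± 0.20 SE, adjusted p = 0.0327) and Pgk1 (-0.88 ± 0.11 SE, adjusted p = 0.000365). The call for Gapdh was lost without doxorubicin replicate 2, doxorubicin replicate 3, day 7 vehicle replicate 1, day 7 vehicle replicate 3, day 6 vehicle replicate 1 or day 6 vehicle replicate 2 (adjusted p between 0.0517 and 0.0768).

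The enolases moved in different directions. Eno1, the widely expressed form, fell with doxorubicin (-0.38 ± 0.12 SE, adjusted p = 0.0176), a call lost without doxorubicin replicate 2, doxorubicin replicate 3 or day 7 vehicle replicate 3 (adjusted p between 0.0536 and 0.0671), and was at -0.15 with peroxide, not called. Eno3, the muscle form, was at 34.1, 27.9 and 29.9 CPM in doxorubicin cells, against 64.1, 63.3 and 68.9 CPM in day 7 vehicle cells. It was at 32.2, 36.6 and 30.1 CPM in peroxide cells, against 78.7, 88.8 and 84.6 CPM in day 6 vehicle cells. Its fall passed in both, at -1.07 ± 0.10 (SE, adjusted p = 4.26e-06) and -1.33 ± 0.10 (SE, adjusted p = 7.54e-07), and the treated libraries all lay below the vehicle libraries. Eno2, the neuronal form, was at 23.8, 26.5 and 27.1 CPM in doxorubicin cells, against 20.2, 19.2 and 15.7 CPM in day 7 vehicle cells. It was at 20.7, 15.5 and 19.4 CPM in peroxide cells, against 9.84, 9.53 and 10.3 CPM in day 6 vehicle cells. Its rise passed in both, at 0.47 ± 0.12 (SE, adjusted p = 0.00839) and 0.83 ± 0.12 (SE, adjusted p = 0.000204), and the effects were not called as different (-0.36 ± 0.18 SE, adjusted p = 0.134). Pgam1 (phosphoglycerate mutase) was at 200.1, 735 and 476 CPM in doxorubicin cells, against 258, 253 and 203 CPM in day 7 vehicle cells, with a wide spread under doxorubicin. Its log2 fold change was 0.80 ± 0.38 (SE, adjusted p = 0.101), and it was 1.32 (adjusted p = 0.00153) without doxorubicin replicate 1.

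Summed over the glycolytic enzymes and both lactate dehydrogenase subunits (19 rows, without Pfkfb3), these transcripts made up 2.87 ± 0.122% of assigned reads in doxorubicin cells, against 4.22 ± 0.127% in day 7 vehicle cells (SD, n = 3). They made up 2.62 ± 0.330% in peroxide cells, against 2.98 ± 0.163% in day 6 vehicle cells (SD, n = 3). The day 7 vehicle thus held the largest share of the 4 groups. No test was made on this sum.

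Of the genes that decide the fate of pyruvate, 2 of 4 fell with doxorubicin and none rose (27.8% and 22.1% of all tested genes). With peroxide 2 rose and 1 fell (27.3% and 23.4%). Ldha, the subunit that favours lactate, was at 3902, 3494 and 3449.6 CPM in doxorubicin cells, against 6363, 6343 and 6711 CPM in day 7 vehicle cells, and at 3347, 4169.6 and 3017 CPM in peroxide cells, against 4267, 4834 and 4790.1 CPM in day 6 vehicle cells. It fell in both (-0.84 ± 0.11 SE, adjusted p = 8.06e-05, and -0.41 ± 0.11 SE, adjusted p = 0.00895), and in neither did the groups overlap. The peroxide call was lost with upper-quartile scaling. Ldhb, the subunit of the heart, rose with peroxide (0.56 ± 0.11 SE, adjusted p = 0.00097) and was at -0.20 with doxorubicin, not called.

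Pdk1, the kinase that holds pyruvate dehydrogenase inactive and a known HIF target, was at 30.3, 27.6 and 30.7 CPM in doxorubicin cells, against 62.2, 56.6 and 56.8 CPM in day 7 vehicle cells. It was at 33.6, 35.8 and 35.9 CPM in peroxide cells, against 29.2, 29.3 and 34.4 CPM in day 6 vehicle cells. It fell with doxorubicin (-0.96 ± 0.08 SE, adjusted p = 3.9e-06), and was not called with peroxide (0.18 ± 0.08 SE, adjusted p = 0.103). The doxorubicin, peroxide and day 6 vehicle libraries all lay between 27.6 and 35.9 CPM, and the day 7 vehicle stood above them. Doxorubicin minus peroxide, the effects differed by -1.14 ± 0.12 (SE, adjusted p = 0.000127). Pdk2, a related kinase, rose with peroxide (0.84 ± 0.28 SE, adjusted p = 0.0252), a call lost without peroxide replicate 2, day 6 vehicle replicate 1 or day 6 vehicle replicate 2 (adjusted p between 0.0645 and 0.0946).

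Of the oxygen sensing genes, with doxorubicin 1 of 5 rose and 2 fell (22.1% and 27.8% of all tested genes). With peroxide 2 rose and 1 fell (27.3% and 23.4%). Hif1a, the main HIF alpha subunit, was at 153, 132 and 171 CPM in peroxide cells, against 69.8, 63.5 and 70.3 CPM in day 6 vehicle cells, and every peroxide library lay above every vehicle library. It was at 107, 107 and 118 CPM in doxorubicin cells, against 111, 104 and 106 CPM in day 7 vehicle cells, where the groups overlapped. The log2 fold changes were 1.14 ± 0.09 (SE, adjusted p = 1.68e-06) with peroxide and 0.04 ± 0.09 (SE, adjusted p = 0.728) with doxorubicin, and the difference between the effects was -1.10 ± 0.13 (SE, adjusted p = 0.000251). For Epas1 (HIF-2 alpha) the effects had the opposite order. It was at 4.15, 5.88 and 5.90 CPM in doxorubicin cells, against 1.23, 1.09 and 0.769 CPM in day 7 vehicle cells, a log2 fold change of 1.63 ± 0.22 (SE, adjusted p = 0.000101) with no overlap. It was at 1.58, 0.741 and 1.78 CPM in peroxide cells, against 3.07, 3.10 and 1.73 CPM in day 6 vehicle cells, a log2 fold change of -0.62 ± 0.22 (SE, adjusted p = 0.0333) with overlap. The peroxide call was lost without peroxide replicate 2, day 6 vehicle replicate 1 or day 6 vehicle replicate 2 (adjusted p between 0.111 and 0.126). The effects on Epas1 differed by 2.25 ± 0.31 (SE, adjusted p = 0.000564).

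Egln1 and Egln3 encode prolyl hydroxylases that mark HIF alpha subunits, and are themselves HIF targets. Egln1 rose with peroxide (0.49 ± 0.08 SE, adjusted p = 0.000531) and fell with doxorubicin (-0.32 ± 0.08 SE, adjusted p = 0.00856), and in neither did the groups overlap. Its effects differed by -0.81 ± 0.12 (SE, adjusted p = 0.000799). Egln3 was at 1.91, 3.22 and 1.36 CPM in doxorubicin cells, against 4.79, 5.38 and 3.69 CPM in day 7 vehicle cells, and fell (-0.86 ± 0.21 SE, adjusted p = 0.0053). With peroxide it was at -0.13, not called. Vhl, the substrate receptor of the ubiquitin ligase, was called in no comparison with all libraries; it was at 10.4, 36.5 and 15.7 CPM in doxorubicin cells, against 11.8, 11.9 and 12.3 CPM in day 7 vehicle cells, with doxorubicin replicate 2 above all others.

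**Figure D4:**
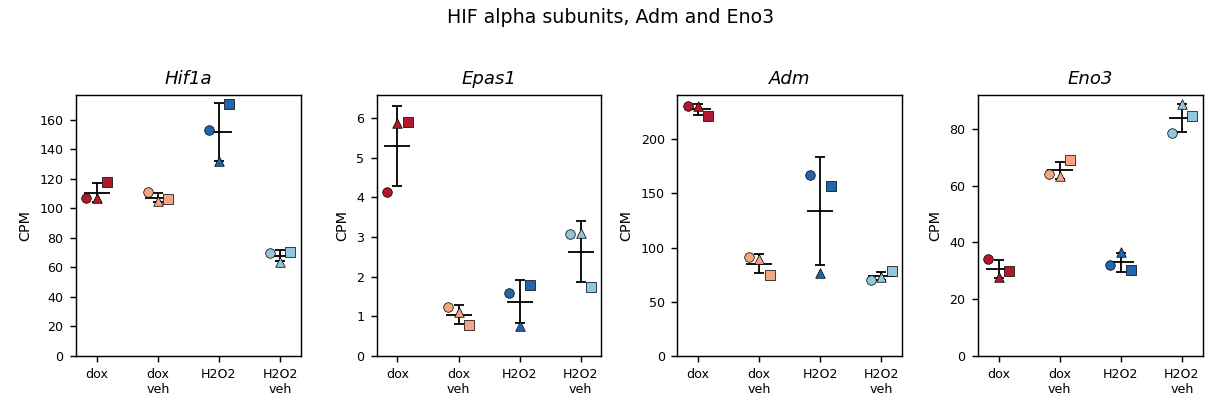
Dots give CPM in each library (circle, triangle and square for replicates 1, 2 and 3), with the group mean and SD in black. Hif1a is highest in the peroxide libraries, Epas1 and Adm in the doxorubicin libraries, and Eno3 is lower in both treated groups than in either vehicle.

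The other HIF targets rose with peroxide in 7 of 8 cases, with none called down (27.3% and 23.4% of all tested genes). With doxorubicin 1 rose and 3 fell (22.1% and 27.8%). Bnip3 and Bnip3l encode receptors that bring mitochondria to autophagy. Bnip3 was at 426, 383 and 406 CPM in doxorubicin cells, against 799, 854 and 798 CPM in day 7 vehicle cells. It was at 563, 528 and 563 CPM in peroxide cells, against 311, 322 and 348 CPM in day 6 vehicle cells. The log2 fold changes had opposite signs, -1.01 ± 0.07 (SE, adjusted p = 3.35e-07) with doxorubicin and 0.75 ± 0.07 (SE, adjusted p = 3.08e-06) with peroxide, with no overlap of libraries in either. Bnip3l was at 292, 282 and 284 CPM in doxorubicin cells, against 362, 363 and 382 CPM in day 7 vehicle cells. It was at 316, 338 and 314 CPM in peroxide cells, against 153, 162 and 172 CPM in day 6 vehicle cells. It fell with doxorubicin (-0.37 ± 0.06 SE, adjusted p = 0.000425) and rose with peroxide (0.99 ± 0.06 SE, adjusted p = 2.13e-07). Higd1a, a small mitochondrial protein of the respiratory chain, was at 343, 278 and 278 CPM in doxorubicin cells, against 532, 539.7 and 547 CPM in day 7 vehicle cells. It was at 355, 343 and 353 CPM in peroxide cells, against 250.2, 267 and 265 CPM in day 6 vehicle cells. It likewise fell with doxorubicin (-0.85 ± 0.08 SE, adjusted p = 5.1e-06) and rose with peroxide (0.42 ± 0.08 SE, adjusted p = 0.000867). The differences between the effects were -1.76 ± 0.09 (SE, adjusted p = 2.61e-06) for Bnip3, -1.35 ± 0.08 (SE, adjusted p = 4.22e-06) for Bnip3l and -1.28 ± 0.11 (SE, adjusted p = 3.41e-05) for Higd1a.

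Ankrd37, Mxi1 and Ndrg1 rose with peroxide and were not called with doxorubicin. Ankrd37, an ankyrin repeat protein, was at 15.04, 18.5 and 14.1 CPM in doxorubicin cells, against 16.3, 16.4 and 15.95 CPM in day 7 vehicle cells. It was at 12.5, 13.3 and 13.1 CPM in peroxide cells, against 6.25, 5.72 and 6.58 CPM in day 6 vehicle cells. Only the peroxide groups did not overlap, with log2 fold changes of 0.96 ± 0.11 (SE, adjusted p = 2.16e-05) with peroxide and -0.04 ± 0.11 (SE, adjusted p = 0.791) with doxorubicin. Mxi1, a repressor that competes with MYC for MAX, was at 10.2, 9.84 and 12.7 CPM in doxorubicin cells, against 15.5, 15.6 and 12.7 CPM in day 7 vehicle cells. It was at 11.9, 10.4 and 13.1 CPM in peroxide cells, against 4.83, 3.72 and 6.88 CPM in day 6 vehicle cells. Its log2 fold changes were 1.09 ± 0.18 (SE, adjusted p = 0.000449) with peroxide and -0.39 ± 0.18 (SE, adjusted p = 0.0905) with doxorubicin. Ndrg1, a stress-induced protein, was at 45.04, 40.02 and 37.8 CPM in doxorubicin cells, against 60.3, 57.2 and 39.4 CPM in day 7 vehicle cells. It was at 45.1, 23.6 and 49.8 CPM in peroxide cells, against 18.5, 15.5 and 20.3 CPM in day 6 vehicle cells, with peroxide replicate 2 the lowest of its group. Its log2 fold changes were 1.03 ± 0.25 (SE, adjusted p = 0.00503) with peroxide and -0.33 ± 0.25 (SE, adjusted p = 0.293) with doxorubicin. Without peroxide replicate 2 and day 7 vehicle replicate 3, these became 1.35 (adjusted p = 8.88e-06) and -0.51 (adjusted p = 0.00521). The differences between the effects were -1.0003 ± 0.15 (SE, adjusted p = 0.000919) for Ankrd37, -1.48 ± 0.26 (SE, adjusted p = 0.002) for Mxi1 and -1.35 ± 0.35 (SE, adjusted p = 0.0144) for Ndrg1.

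Adm, which encodes the secreted vasodilator adrenomedullin, was the only member of its group called up with doxorubicin. It was at 231, 230.2 and 221 CPM in doxorubicin cells, against 91.2, 89.5 and 74.7 CPM in day 7 vehicle cells, a log2 fold change of 1.41 ± 0.23 (SE, adjusted p = 0.000411). It was at 167, 76.4 and 157 CPM in peroxide cells, against 70.4, 72.7 and 77.96 CPM in day 6 vehicle cells, where peroxide replicate 2 lay among the vehicle libraries. The log2 fold change with peroxide was 0.77 ± 0.23 (SE, adjusted p = 0.016); that call was lost without peroxide replicate 1 or peroxide replicate 3 (adjusted p between 0.062 and 0.067), and without peroxide replicate 2 and day 7 vehicle replicate 3 it was 1.13 (adjusted p = 4.94e-07). The effects were not called as different (0.64 ± 0.32 SE, adjusted p = 0.144). Kdm3a, a histone demethylase, was called in no comparison in the fit reported here (-0.18 with doxorubicin and 0.17 with peroxide), and reached 0.37 (adjusted p = 0.00614) with peroxide without peroxide replicate 2. With array weights, which kept all libraries, it passed in all 4 comparisons: with doxorubicin (-0.20, adjusted p = 0.038), with peroxide (0.33, adjusted p = 0.0124), for the difference (-0.53, adjusted p = 0.00456) and between the vehicles (0.40, adjusted p = 0.00357).

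The vehicle groups differed from each other in most members. Against day 6 vehicle cells, 26 of 39 rows were higher in day 7 vehicle cells and 2 were lower (Eno3 and Epas1), while 15.1% of all tested genes were called higher, 12.9% lower and 28% either way. The median log2 difference was 0.56 over the members and -0.02 over all tested genes. At 1 log2 unit or more, 9 members were higher (1.63% of all tested genes): Aldoc, Ndrg1 (1.47), Pfkfb3, Mxi1 (1.37), Bnip3 (1.32), Ankrd37 (1.26), Bnip3l (1.18), Higd1a (1.05) and Egln3 (1.01). By role, 6 of 8 other HIF targets were higher, as were 8 of 11 rows before triose phosphate, 4 of 7 after it, 3 of 4 for the fate of pyruvate, 3 of 5 for oxygen sensing and 2 of 4 carriers. Libraries of the vehicles did not overlap for 32 of 39 rows, 30 of them higher on day 7 (52.2% of all tested genes did not overlap). Day of lysis and schedule differ together between the vehicles, and passaging and density may differ as well. These cannot be told apart.

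Of the vehicle calls, 6 were lost when 1 library was left out. That for Pfkm (0.34 ± 0.11 SE, adjusted p = 0.0417) was lost without any 1 library other than doxorubicin replicate 1, doxorubicin replicate 2, peroxide replicate 2 or peroxide replicate 3 (adjusted p between 0.0546 and 0.137). That for Slc2a1 (0.38 ± 0.12 SE, adjusted p = 0.0319) was lost without day 7 vehicle replicate 1, day 7 vehicle replicate 2, day 7 vehicle replicate 3, day 6 vehicle replicate 1, day 6 vehicle replicate 2 or day 6 vehicle replicate 3 (adjusted p between 0.0538 and 0.0975). That for Ldhb (0.36 ± 0.11 SE, adjusted p = 0.0258) was lost without day 7 vehicle replicate 1, day 7 vehicle replicate 3, day 6 vehicle replicate 1 or day 6 vehicle replicate 2 (adjusted p between 0.0811 and 0.0897). These 3 are a phosphofructokinase subunit, a glucose carrier and a lactate dehydrogenase subunit. The call for Pfkl (0.50 ± 0.13 SE, adjusted p = 0.017) was lost without day 7 vehicle replicate 1, day 7 vehicle replicate 2 or day 6 vehicle replicate 1 (adjusted p between 0.0529 and 0.0668). Both lower genes were in this position too: Eno3 (-0.35 ± 0.10 SE, adjusted p = 0.0177) was lost without day 7 vehicle replicate 1, day 7 vehicle replicate 2 or day 6 vehicle replicate 2 (adjusted p between 0.0574 and 0.0725), and Epas1 (-0.82 ± 0.22 SE, adjusted p = 0.0166) without day 7 vehicle replicate 3, day 6 vehicle replicate 1 or day 6 vehicle replicate 2 (adjusted p between 0.065 and 0.0675).

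Seen by group mean, the day 7 vehicle was the highest of the 4 groups in 26 of 39 rows (66.7%, against 20.6% of all tested genes), and the day 6 vehicle the lowest in 21 (53.8%, against 27.7%). Between doxorubicin and peroxide cells the median absolute log2 difference was 0.23 over the members and 0.26 over all tested genes. Of the 39 members 33 lay within 0.5, beside 77.6% of all tested genes, so this closeness was near that of all genes. Between the vehicles the median absolute difference was 0.62 over the members and 0.26 over all tested genes. There 14 members lay within 0.5, beside 77.3% of all tested genes. The treated groups were lysed on different days after different schedules, so their direct difference is a description. With all libraries, the members farthest apart between doxorubicin and peroxide cells were Hk1 (1.83), Slc16a3 (1.51), Epas1 (1.43) and Pgam1 (1.24). This order was not worked out without the libraries that stood apart. Peroxide replicate 2 was the lowest of its group for Hk1 (17.4 CPM, against 91.7 and 100.4), Slc16a3 (11.5 CPM, against 24.1 and 23.7) and Epas1 (0.741 CPM, against 1.58 and 1.78). For Pgam1, doxorubicin replicate 1 lay far below its partners (200.1 CPM, against 735 and 476).

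The doxorubicin effect minus the peroxide effect was negative and called for 19 of 39 rows, and positive and called for 2 (Slc16a3 and Epas1), beside 20.1% negative, 13.5% positive and 33.6% either way of all tested genes. The median difference was -0.62 over the members and -0.07 over all tested genes. At 1 log2 unit or more, 10 members were negative and 2 positive (3.46% and 7.69% of all tested genes). By role the negative calls took in 6 of 8 other HIF targets, 6 of 11 rows before triose phosphate, 2 of 7 after it, 2 of 4 for the fate of pyruvate, 2 of 5 for oxygen sensing and 1 of 4 carriers. Under median-of-ratios scaling 17 members were negative and 4 positive, and over all genes the calls were 2116 positive and 1953 negative, against 1796 and 2665 as tested here. This difference is built from all 4 groups, and so contains the difference between the vehicles. For Aldoc, the doxorubicin effect of -3.43, the peroxide effect of 0.38 and the vehicle difference of 3.49 stand side by side. For Bnip3 the same values were -1.01, 0.75 and 1.32, and for Pfkfb3 -0.28, 0.86 and 1.45. For Hif1a they were 0.04, 1.14 and 0.65. Whether passaging and density moved these genes in the vehicles was not tested.

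**Figure D5:**
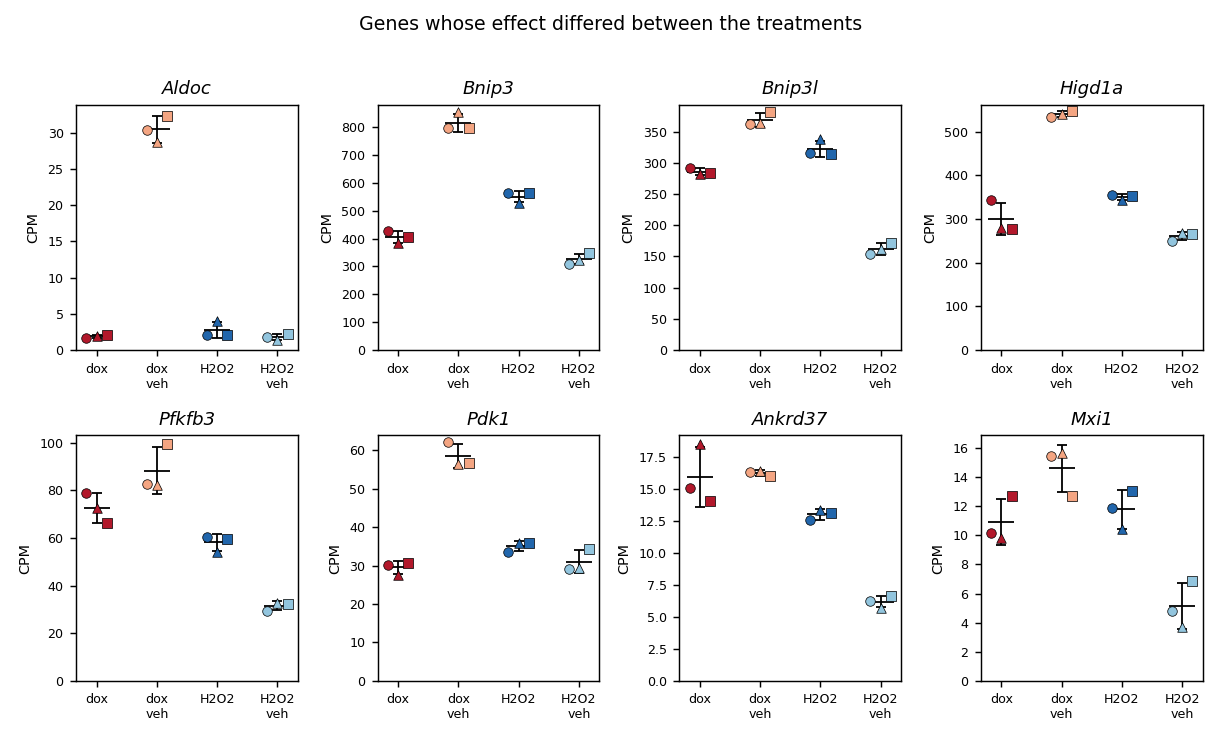
Dots give CPM in each library (circle, triangle and square for replicates 1, 2 and 3), with the group mean and SD in black, for 8 members whose effects differed between the treatments. In each panel the day 7 vehicle lies above the day 6 vehicle, and Aldoc reaches 28.7 CPM or more only in the day 7 vehicle.

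Promoters are shown for 5 members on which these results turn: Aldoc, Bnip3, Ankrd37 and Pfkfb3, which were higher in the day 7 vehicle, and Adm, which rose with both treatments. Aldoc lies at chr11:78322968-78327781 (plus strand), Bnip3 at chr7:138890836-138909519 (minus), Ankrd37 at chr8:45996902-46005707 (minus), Pfkfb3 at chr2:11471433-11554077 (minus) and Adm at chr7:110627661-110629820 (plus), all protein-coding in GENCODE M21 on GRCm38. Each promoter runs from 250 bases before to 50 after a RefSeq transcript start (GRCm38.p6), read 5′ to 3′ on the strand of the gene. Capitals mark ACGTG or GCGTG on either strand, so CACGT and CACGC are matches to the other strand, and CACGTG counts as a match on each. The Aldoc window is chr11:78322823-78323122, that of Bnip3 chr7:138909457-138909756, that of Ankrd37 chr8:45999801-46000100, that of Pfkfb3 chr2:11502041-11502340 and that of Adm chr7:110627407-110627706. Aldoc and Pfkfb3 each have a second start, not shown, whose window holds 1 match, fewer than the window shown.
Aldoc: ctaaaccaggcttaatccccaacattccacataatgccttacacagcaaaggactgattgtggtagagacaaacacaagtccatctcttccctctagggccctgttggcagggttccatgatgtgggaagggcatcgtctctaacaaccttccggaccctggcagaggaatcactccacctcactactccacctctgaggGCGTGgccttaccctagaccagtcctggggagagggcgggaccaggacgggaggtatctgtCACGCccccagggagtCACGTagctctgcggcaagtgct
Bnip3: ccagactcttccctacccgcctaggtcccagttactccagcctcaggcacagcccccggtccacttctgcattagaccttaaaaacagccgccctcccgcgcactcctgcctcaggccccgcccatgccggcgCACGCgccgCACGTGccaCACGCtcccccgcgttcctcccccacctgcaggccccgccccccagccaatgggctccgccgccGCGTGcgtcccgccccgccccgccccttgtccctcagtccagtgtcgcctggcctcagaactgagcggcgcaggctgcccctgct
Ankrd37: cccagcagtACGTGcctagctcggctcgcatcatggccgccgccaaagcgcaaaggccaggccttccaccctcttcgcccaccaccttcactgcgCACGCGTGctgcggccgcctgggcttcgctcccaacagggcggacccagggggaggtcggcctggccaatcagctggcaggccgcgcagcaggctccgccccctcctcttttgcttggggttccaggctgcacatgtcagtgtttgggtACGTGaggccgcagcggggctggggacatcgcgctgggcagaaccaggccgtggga
Pfkfb3: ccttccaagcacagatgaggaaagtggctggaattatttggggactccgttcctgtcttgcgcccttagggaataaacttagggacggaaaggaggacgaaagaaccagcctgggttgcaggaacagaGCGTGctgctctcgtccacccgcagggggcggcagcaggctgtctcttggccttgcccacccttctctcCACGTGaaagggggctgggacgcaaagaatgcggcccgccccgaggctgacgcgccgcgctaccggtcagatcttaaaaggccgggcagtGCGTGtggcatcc
Adm: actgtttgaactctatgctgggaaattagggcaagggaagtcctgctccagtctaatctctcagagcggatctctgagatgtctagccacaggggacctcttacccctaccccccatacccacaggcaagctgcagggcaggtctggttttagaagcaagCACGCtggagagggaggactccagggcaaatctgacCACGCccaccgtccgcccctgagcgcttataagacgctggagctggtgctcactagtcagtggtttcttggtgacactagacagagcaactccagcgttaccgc
The windows shown hold 3 matches for Aldoc, 5 for Bnip3, 4 for Ankrd37, 4 for Pfkfb3 and 2 for Adm. RefSeq gave promoters for 34 of the 38 symbols, with none for Bnip3l, Epas1, Ndrg1 and Slc2a3. At least 1 match stood in 39 of 52 member promoters (75%), and in 43.8% of all 32851 promoters of the same length. Counted by gene it was 30 of 34 (88.2%), and 46.7% of 27025 genes. Member promoters also had more G and C, with a median of 62.5% against 52.7%, and the part of base composition in the count was not tested. A match says only that these letters stand in the window.

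Isoform shares were compared per length, as CPM per kb of merged exons. Aldoa led Aldoc in every group, and Aldoc made up 0.0373% of the pair in doxorubicin cells, 0.433% in day 7 vehicle cells, 0.0578% in peroxide cells and 0.0383% in day 6 vehicle cells. Ldha made up 95.9% of the lactate dehydrogenase pair in doxorubicin cells, 97.3% in day 7 vehicle cells, 94.5% in peroxide cells and 97.1% in day 6 vehicle cells. Hif1a led Epas1 throughout, and the share of Epas1 was 4.83% in doxorubicin cells, 1.01% in day 7 vehicle cells, 0.940% in peroxide cells and 3.93% in day 6 vehicle cells. The leading forms were thus the same in all groups for aldolases, lactate dehydrogenases and HIF alpha subunits. Pdk1 made up 66.4% of the Pdk1 and Pdk2 pair in doxorubicin cells, 83.4% in day 7 vehicle cells, 70.9% in peroxide cells and 82.1% in day 6 vehicle cells. By group mean, Slc16a3 led Slc16a1 except in peroxide cells, where Slc16a1 made up 59.9% of the pair. Its lead in day 7 vehicle cells was slight (50.6%), and in replicate 3 it was at 4.02 CPM per kb, below every Slc16a1 value there (7.93 or more). In the hexokinase pair Hk1 led by group mean except in peroxide cells, where Hk2 led per merged exons and Hk1 per longest transcript. The low libraries enter these means. Per kb of merged exons, Hk1 ranged from 2.03 to 11.8 CPM in peroxide cells, against 10.8 to 11.5 for Hk2. In day 7 vehicle cells it ranged from 3.94 to 20.6 CPM, against 12.4 to 13.3.

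Related genes were read from lists of the same pathways. Of all tested genes, 22.1% rose and 27.8% fell with doxorubicin, and 27.3% rose and 23.4% fell with peroxide. Between the vehicles, 15.1% of all tested genes were higher and 12.9% lower on day 7. Of 27 tested further HIF targets, 7 rose and 8 fell with doxorubicin, 12 rose and 4 fell with peroxide, and 15 were higher and none lower in day 7 than in day 6 vehicle cells. The median log2 vehicle difference was 0.57 over these genes. Tfrc, the transferrin receptor, had the largest fall on that list in both treatments: 13.1 ± 0.754 CPM in doxorubicin cells, against 71.4 ± 7.54 CPM in day 7 vehicle cells (log2 fold change -2.36 ± 0.10 SE, adjusted p = 1.26e-08), and 14.4 ± 1.60 CPM in peroxide cells, against 87.2 ± 3.34 CPM in day 6 vehicle cells (-2.52 ± 0.10 SE, adjusted p = 1.12e-08). The largest rises were in Car12, a carbonic anhydrase (1.26 ± 0.18 SE, adjusted p = 0.000184, with doxorubicin), and Selenbp1, a methanethiol oxidase (1.76 ± 0.21 SE, adjusted p = 3.85e-05, with peroxide). Car12 was at or above 1 CPM in treated libraries alone (0.896 to 2.196 CPM in treated, against 0.0493 to 0.520 CPM in vehicle libraries), so it passed the filter only through them and its rise is a description; without it, 6 genes of this list rose with doxorubicin and 11 with peroxide. The 7 tested pentose phosphate genes held 5 falls and no rise with doxorubicin, and 3 falls and no rise with peroxide. Tkt (transketolase) fell most with doxorubicin (-0.98 ± 0.10 SE, adjusted p = 1.76e-05), and Rpia (ribose phosphate isomerase) with peroxide (-1.78 ± 0.14 SE, adjusted p = 1.72e-06).

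The lists that follow stand beside the same shares of all tested genes. These were 22.1% up and 27.8% down with doxorubicin, 27.3% up and 23.4% down with peroxide, and 28% called between the vehicles. Of 9 tested other glycolysis genes, 1 rose and 4 fell with doxorubicin, and 3 rose and 3 fell with peroxide. The largest changes were in Slc2a8, an intracellular hexose carrier (0.78 ± 0.19 SE, adjusted p = 0.00496), and Pfkfb1 (-0.98 ± 0.13 SE, adjusted p = 7.97e-05) with doxorubicin. With peroxide they were in Pfkfb2 (0.68 ± 0.17 SE, adjusted p = 0.00648) and Tigar (-1.002 ± 0.09 SE, adjusted p = 3.29e-06); Tigar and the Pfkfb genes act on fructose 2,6-bisphosphate. Of 12 genes for the entry of pyruvate into mitochondria, 2 rose and 4 fell with doxorubicin, and 2 rose and 3 fell with peroxide. Pdk4, another pyruvate dehydrogenase kinase, had the largest rise with doxorubicin (0.89 ± 0.33 SE, adjusted p = 0.0411) and the largest fall with peroxide (-1.28 ± 0.33 SE, adjusted p = 0.00686). Pdp2, a phosphatase that reactivates the enzyme, fell most with doxorubicin (-1.11 ± 0.07 SE, adjusted p = 2.71e-07), and its relative Pdp1 rose most with peroxide (0.95 ± 0.12 SE, adjusted p = 6.72e-05). Of 11 other oxygen sensing genes, 2 rose and 4 fell with doxorubicin, 2 rose and 3 fell with peroxide, and none was called between the vehicles. Arnt2, a partner of HIF alpha, rose most in both (1.18 ± 0.19 SE, adjusted p = 0.000385, and 1.38 ± 0.19 SE, adjusted p = 0.000112). Arnt2 was at or above 1 CPM in treated libraries alone (1.44 to 2.77 CPM in treated, against 0.148 to 0.729 CPM in vehicle libraries), so it passed the filter only through them and its rises are a description; without it, 1 gene of this list rose with each treatment. The largest falls were in Cited2, which competes for the HIF coactivator (-0.83 ± 0.10 SE, adjusted p = 3.34e-05, with doxorubicin), and Siah2, a ubiquitin ligase for prolyl hydroxylases (-0.73 ± 0.19 SE, adjusted p = 0.00891, with peroxide).

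Some members that were not called passed when 1 library was left out. All groups share 1 estimate of the spread. Leaving out a library from outside a comparison therefore keeps its log2 value and moves only its adjusted p. This holds for Hk1 with peroxide without day 7 vehicle replicate 3, and for other calls gained or lost in that way, here and above. Without peroxide replicate 2, the peroxide comparison also held Eno1 (-0.29, adjusted p = 0.0197), Gapdh (-0.33, adjusted p = 0.0234) and Pfkl (0.39, adjusted p = 0.0142), and the doxorubicin comparison held Ldhb (-0.20, adjusted p = 0.0338) and Pfkm (-0.23, adjusted p = 0.0209). Without doxorubicin replicate 1, Hk2 (0.37, adjusted p = 0.0213) and Vhl (0.95, adjusted p = 0.0184) passed with doxorubicin beside Pgam1. Without day 6 vehicle replicate 3, Pdk1 passed with peroxide (0.25, adjusted p = 0.0323) and Mxi1 with doxorubicin (-0.39, adjusted p = 0.0443). Without day 7 vehicle replicate 3, Hk1 passed with peroxide (-1.51, adjusted p = 0.0327), and without doxorubicin replicate 1 Pgam1 did so (-0.64, adjusted p = 0.0359). Between the vehicles, Eno1 (0.31, adjusted p = 0.0121) and Kdm3a (0.33, adjusted p = 0.00974) passed without peroxide replicate 2, Pdk2 (0.62, adjusted p = 0.0392) without doxorubicin replicate 2, and the low Aldoa identifier (0.55, adjusted p = 0.0188) without day 6 vehicle replicate 3. The difference between the effects passed for Pgam1 (1.96, adjusted p = 0.00203), Ldha (-0.49, adjusted p = 0.0346) and Hk2 (0.48, adjusted p = 0.0321) without doxorubicin replicate 1, and for Pdk2 (-0.95, adjusted p = 0.041) and Egln3 (-0.96, adjusted p = 0.019) without doxorubicin replicate 2. It passed for Kdm3a (-0.55, adjusted p = 0.00753) and Eno2 (-0.48, adjusted p = 0.0386) without peroxide replicate 2, and for Slc2a1 (-0.46, adjusted p = 0.017) and Hk1 (2.92, adjusted p = 0.0476) without peroxide replicate 3. It also passed for the main Aldoa identifier (-0.56, adjusted p = 0.0141) without peroxide replicate 3 and for the second (-0.67, adjusted p = 0.0256) without doxorubicin replicate 1. In all, 6 rows gained a call with doxorubicin in this way, 7 with peroxide, 4 between the vehicles and 11 for the difference. Over single libraries left out in turn, the falls with doxorubicin ranged from 18 to 24 of 39 and the rises from 3 to 6, while with peroxide the rises ranged from 13 to 16 and the falls from 6 to 9. Without peroxide replicate 2 and day 7 vehicle replicate 3, 24 members fell and 3 rose with doxorubicin, and 15 rose and 10 fell with peroxide. These calls were lost without that pair: Pfkfb3 with doxorubicin (-0.19, adjusted p = 0.093), Epas1 (-0.42, adjusted p = 0.122), Pdk2 (0.60, adjusted p = 0.103) and Gpi1 (0.20, adjusted p = 0.0734) with peroxide, and Gapdh for the difference (-0.40, adjusted p = 0.0534). Without doxorubicin replicate 1 as well, 24 fell and 7 rose with doxorubicin, and 16 rose and 12 fell with peroxide.

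Calls also began without peroxide replicate 2 and day 7 vehicle replicate 3, beside those of Hk1 with peroxide and Ndrg1 with doxorubicin. They were Pfkm (-0.22, adjusted p = 0.046) and Kdm3a (-0.26, adjusted p = 0.0173) with doxorubicin, and Pfkl (0.39, adjusted p = 0.00695), Gapdh (-0.33, adjusted p = 0.0179), Eno1 (-0.29, adjusted p = 0.0181) and Kdm3a (0.37, adjusted p = 0.00233) with peroxide. For the difference between the effects they were Hk1 (0.91, adjusted p = 0.0111), Pfkl (-0.51, adjusted p = 0.0209), Eno2 (-0.58, adjusted p = 0.0123) and Kdm3a (-0.63, adjusted p = 0.00281). Between the vehicles they were Eno1 (0.26, adjusted p = 0.048), Kdm3a (0.41, adjusted p = 0.00317) and Adm (0.29, adjusted p = 0.0078). The vehicle difference of Hk1, not called either way, was -0.66 with all libraries and 0.11 (adjusted p = 0.606) without the pair. Without doxorubicin replicate 1 as well, the further calls were Hk1 (0.36, adjusted p = 0.0151), Hk2 (0.35, adjusted p = 0.0341), Pgam1 (1.21, adjusted p = 0.00281) and Vhl (0.96, adjusted p = 0.025) with doxorubicin, and Tpi1 (-0.20, adjusted p = 0.0263) and Pgam1 (-0.67, adjusted p = 0.0339) with peroxide. For the difference they were Pgam1 (1.88, adjusted p = 0.00254), Pkm (-0.26, adjusted p = 0.0496), Ldha (-0.33, adjusted p = 0.0274) and the second Aldoa identifier (-0.70, adjusted p = 0.0477).

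Reads of some members could be shared with near-identical copies or with overlapping genes, which makes their levels less certain. Over 10% of the 50-base windows of the transcripts recurred in other genes for 11 members: Pgk1 (53.9%), Bnip3 (47.2%), Pgam1 (36.2%), Eno1 (25.99%), Pkm (25.8%), Gapdh (25.1%), Higd1a (24.4%), Ldhb (20.99%), Bnip3l (20.8%), Ankrd37 (17.04%) and Gpi1 (15.8%). Windows were compared on both strands, so these shares include windows shared with genes that overlap on the other strand. For Ankrd37 the only sharing genes, Lrp2bp and Ufsp2, are of that kind. Of the listed members, Bnip3, Ankrd37, Gpi1, Higd1a and Gapdh overlap genes on the other strand. Outside this list, so do Slc2a1, Hk1, Pfkm, Pfkp, the main Aldoa identifier, Tpi1, Hif1a, Ndrg1 and Mxi1. Pkm, Pfkm and Hif1a overlap genes on the same strand. Strand use in counting is not given in the sources used here. For Aldoc, Epas1 and Adm no window recurred in another gene.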

How the data were processed

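RNA-seq of 12 libraries was used as deposited: the authors gave CPM (counts per 1e+06 reads assigned to genes). Per the submitters' processing notes, bcl2fastq and DRAGEN were used with mm10; how reads were counted, and on which annotation, is not given in the sources used here. It had 55774 lines; 287 repeats with identical values were dropped, leaving 55487 genes. Values were multiples of fractional reads, so no count model was used and CPM, not counts, were tested.

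The 13280 genes (23.9%) at or above 1 CPM in 3 libraries or more were fitted as log2(CPM + 1), which understates changes of low genes, with limma 3.58.1 (R 4.3.3; trend, 4 group means, 8 residual degrees of freedom, prior median 3.07). Two-sided tests had Benjamini-Hochberg adjustment over all tested genes and a threshold of 0.05. Comparisons were each treatment against its vehicle, the difference of these effects, and the vehicles. The fit was tested on simulated data with known changes. Python 3.11.15, numpy 2.4.6, pandas 2.3.3 and matplotlib 3.10.9 made tables and figures.

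Positions and transcripts came from GENCODE M21 (99.5% of identifiers matched), promoters from RefSeq. Values in every library are given for members with an adjusted p below 0.05 and a change or difference of at least 1 log2 unit, for those whose libraries stood apart, and for examples chosen by role after their values were seen. From the other lists the largest rise and fall per treatment are named. Members and lists were chosen with earlier results of these data known. Alternatives, 23 planned and 2 added after seeing the data, covered pseudocount, filter, scaling, model settings, threshold, replicate block and libraries left out.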

Additional observations from a re-analysis of the deposited data

Results flagged for a closer look

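The effects of the treatments, each against its own vehicle, differed for 21 of 39 rows by the test of the difference itself (limma, adjusted p below 0.05, over all tested genes). Of all tested genes, 33.6% passed this test. Doxorubicin minus peroxide, the log2 difference was positive for Slc16a3 (2.18) and Epas1 (2.25), which encode a lactate exporter and HIF-2 alpha. Among HIF targets outside glycolysis and the oxygen sensors it was negative for Bnip3 (-1.76), Mxi1 (-1.48), Bnip3l (-1.35), Ndrg1 (-1.35), Higd1a (-1.28), Hif1a (-1.10), Ankrd37 (-1.0003) and Egln1 (-0.81). Among glycolytic enzymes, carriers and pyruvate genes it was negative for Aldoc (-3.81), Pdk1 (-1.14), Pfkfb3 (-1.14), Tpi1 (-0.90), Pgk1 (-0.88), Pfkp (-0.83), Ldhb (-0.76), Pfkm (-0.69), Gapdh (-0.64), Gpi1 (-0.63) and Slc2a3 (-0.41). The test uses all 4 groups, and the vehicles differed from each other for most of these members, so the treatment effects and the vehicle difference share libraries. The part of the vehicle schedules was not tested. Single libraries left out ended the calls of Slc16a3 (any 1 of 2 libraries), Gapdh (any 1 of 6) and Slc2a3 (any 1 of 7).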

How the results depend on the processing

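Of 97 calls of single members, 76 held in every alternative in which they were tested (pseudocount, filter, scaling, model settings, threshold, libraries left out), 21 were lost in at least 1, and none reversed direction. Of the 76, 6 calls of Epas1, Egln3 and the second Aldoa identifier were not tested under the filter of 5 CPM. The small counts moved most. Members called up with doxorubicin (3, against 22.1% of all tested genes) numbered 5 with array weights (31.8%) and 7 without the 3 libraries that stood apart (26.3%; chosen after seeing the data). Positive differences between the effects (2, 13.5%) numbered 1 with a filter of 5 CPM (15.7%), 4 with median-of-ratios scaling (15.9%), 6 with array weights (21.4%), 1 at a threshold of 0.01 (4.69%) and 4 without those 3 libraries (18.2%). Members lower in the day 7 vehicle (2, 12.9%) numbered 1 without a filter (4.36%), 1 with a filter of 5 CPM (15.1%), 1 with upper-quartile scaling (10.3%) and 0 at a threshold of 0.01 (6.91%); the cause was not tested. Leaving out 1 library at a time gave 3 to 6 up and 18 to 24 down with doxorubicin, 13 to 16 up and 6 to 9 down with peroxide, 1 to 4 positive and 17 to 22 negative differences, and 22 to 28 higher and 0 to 2 lower in the day 7 vehicle. Whether replicate numbers pair the libraries is not given in the labels. Deviations of same-numbered libraries correlated between -0.31 and 0.39, which with 3 libraries per group cannot settle it. With a replicate block, 3 members were called up and 20 down with doxorubicin, 15 up and 6 down with peroxide, 2 positive and 18 negative for the difference, and 24 higher and 2 lower in the day 7 vehicle; 7 calls were lost. Per-length isoform orders held in 41 of 44 cases with the longest transcript in place of merged exons. Low genes such as Epas1 and Egln3 rest on few reads per library.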

Other observations

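Further HIF targets, named here after their values were seen, are given as values. Ero1l, an oxidase of the endoplasmic reticulum, fell with doxorubicin at a log2 fold change of -1.05 ± 0.07 (SE, adjusted p = 4.41e-07), rose with peroxide at 0.27 ± 0.07 (SE, adjusted p = 0.00748), and was higher in the day 7 than in the day 6 vehicle by 1.28 ± 0.07 (SE, adjusted p = 1.03e-06). Selenbp1 had the log2 values -1.31 ± 0.21 (SE, adjusted p = 0.00038), 1.76 ± 0.21 (SE, adjusted p = 3.85e-05) and 2.53 ± 0.21 (SE, adjusted p = 1.55e-05) in the same order. Edn1, the vasoconstrictor endothelin, rose with doxorubicin (1.15 ± 0.23 SE, adjusted p = 0.00162) and was not called with peroxide (-0.14 ± 0.23 SE, adjusted p = 0.65). Hmox1, the heme oxygenase, rose with doxorubicin (1.25 ± 0.11 SE, adjusted p = 4.26e-06) and with peroxide (1.13 ± 0.11 SE, adjusted p = 8.68e-06). Vegfa, the angiogenic factor, was not called with doxorubicin (-0.11 ± 0.10 SE, adjusted p = 0.359) and rose with peroxide (0.36 ± 0.10 SE, adjusted p = 0.00968).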
